A study of Mus musculus with 9 samples.

Results

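The genes described here encode precursors of neuropeptides, hypothalamic releasing hormones and pituitary hormones, with 3 further proteins of the secretory pathway (Scg2, Vgf and Nucb2). They are a list of 37 symbols, each found as a row of the deposited count table, out of 21877 gene names in that table. At least 1 library held a count for every member except Kiss1, and 34 members passed the filter on low counts and were tested. RNA was sequenced from paraventricular thalamus (PVT) tissue of wild-type (WT) mice, in 3 groups of 3 libraries. The LPS 7d group was taken 7 days after an intraperitoneal injection of lipopolysaccharide (LPS), an endotoxin of bacterial outer membranes. The LPS 1d group was taken 1 day after LPS, and the PBS 1d group 1 day after phosphate-buffered saline (PBS). No PBS library of 7 days is used here, so in the comparison of LPS 7d with PBS 1d the day and the treatment cannot be told apart. The labels used here give no age, sex or strain and do not say whether each library is 1 animal or a pool, so the p-values rest on the spread among these libraries, which could be technical.

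The libraries held 13211422 to 17210526 gene counts each, with levels expressed as CPM (counts put on a common library total with TMM factors). The groups also differed in ways that the labels do not name. The summed level of 4 Y-linked genes (Ddx3y, Eif2s3y, Kdm5d and Uty) was 90.5 to 101.9 CPM in LPS 7d, 81.5 to 85.2 CPM in LPS 1d and 0 to 0.0588 CPM in PBS 1d libraries. Any difference between LPS and PBS described below therefore comes with this difference, and the 2 cannot be told apart. Listed marker genes of thalamus and PVT, among them Gbx2 and Calb2, were detected in all groups. They summed to 876 to 897 CPM in LPS 7d, 987 to 1003 CPM in LPS 1d and 1027 to 1040 CPM in PBS 1d. Among them, Calb2 averaged 160 CPM in LPS 7d, 73.8 CPM in LPS 1d and 97.1 CPM in PBS 1d. These values are part of the sums. Calb2 was highest in the libraries with the most cerebellar and hindbrain markers, given below, and whether such tissue added to it was not tested. By the edgeR test described below, 6 of the 12 fell in LPS 7d against PBS 1d and 1, Calb2, rose. Those that fell included Tcf7l2 (log2 fold change -0.72), Plekhg1 (-0.53) and Prkcd (-0.46). In LPS 1d against PBS 1d, 5 fell and 3 rose. Over all genes, 35.6% were called in LPS 7d and 49.1% in LPS 1d, each against PBS 1d. Marker genes of the striatum, a forebrain region outside the thalamus, summed to 1028 to 1057 CPM in LPS 7d, 1534 to 1536 CPM in LPS 1d and 2414 to 2474 CPM in PBS 1d. All 12 striatal markers were lower in LPS 7d than in PBS 1d. Markers of cerebellum and hindbrain summed to 1013 to 1049 CPM in LPS 7d, against 8.94 to 10.3 CPM in LPS 1d and 11.4 to 12.6 CPM in PBS 1d. In whole tissue, fewer cells of a type and less RNA per cell cannot be told apart, and a shift in the regions held by the sample moves a transcript in the same way.

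**Figure D1:**
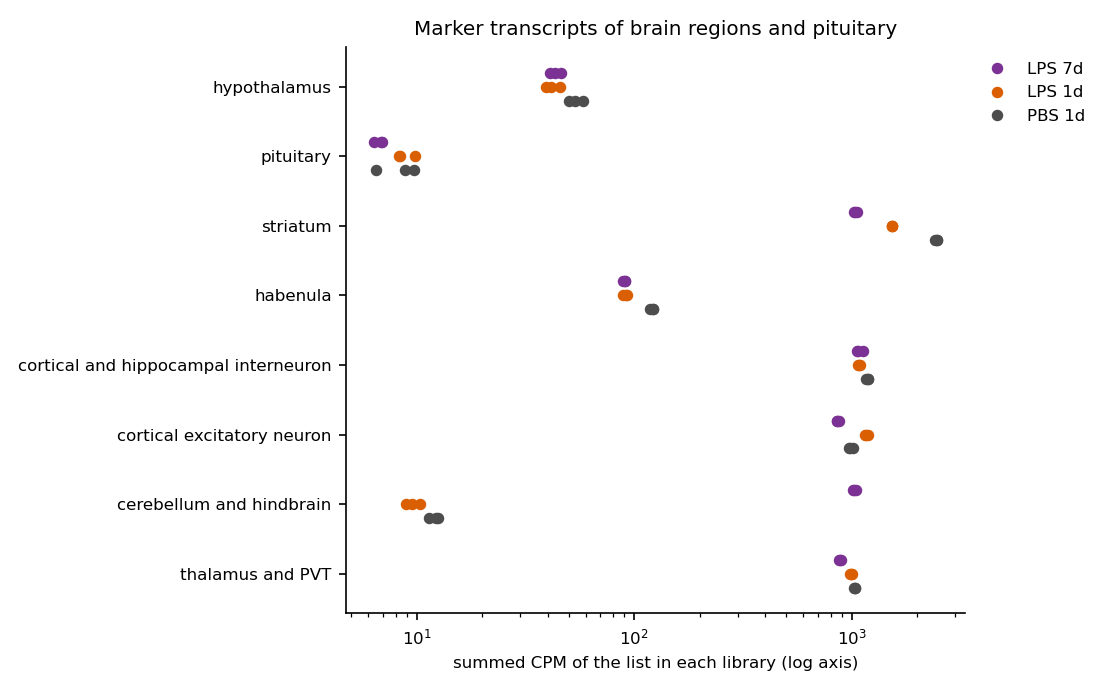
Summed CPM (log axis) of marker gene lists for brain regions and pituitary, with 1 point for each library and a colour for each group. The 3 LPS 7d libraries stand apart in cerebellum and hindbrain markers (1013 to 1049 CPM), and the 3 groups separate in striatum markers.

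Neuropeptides are cut from larger precursor proteins, stored in dense-core vesicles and released to act on G protein-coupled receptors, often far from the cell body. The precursor transcript lies mainly in the cell body, so the peptide that fibres bring into a region leaves little RNA there. The PVT receives dense peptide input from the hypothalamus, including orexin fibres that promote wakefulness. Prolactin and growth hormone are made chiefly by the anterior pituitary, and oxytocin and vasopressin by magnocellular neurons of the hypothalamus.

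Promoter sequence is shown for 6 members: Prl, Hcrt and Oxt, which gave large changes below, and Sst, Cartpt and Scg2, which fell in both LPS groups and hold the same 8-letter element. RefSeq windows (GRCm38.p6) were matched for 28 of the 37 members, with 31 windows. Agrp, Crh, Pnoc, Gh, Gnrh1, Npff, Penk, Grp and Vgf are named only. Each sequence is the 250 bases before the start site, 5′ to 3′ in the direction of the gene, in lower case. Capitals mark a match, on either strand, to the cyclic AMP response element TGACGTCA or its shorter form TGACG, to TATAAA, to TATNCAT (read by the pituitary factor POU1F1), to AGGTCA (the core of many nuclear receptor sites) or to TGANTCA (the AP-1 element).
Prl, chr13:27057320-27057569, plus strand: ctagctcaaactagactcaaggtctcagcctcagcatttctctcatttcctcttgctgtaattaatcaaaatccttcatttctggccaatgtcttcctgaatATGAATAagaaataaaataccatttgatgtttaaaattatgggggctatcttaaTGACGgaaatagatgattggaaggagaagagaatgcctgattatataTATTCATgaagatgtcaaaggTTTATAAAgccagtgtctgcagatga
Hcrt, chr11:100762932-100763181, minus strand: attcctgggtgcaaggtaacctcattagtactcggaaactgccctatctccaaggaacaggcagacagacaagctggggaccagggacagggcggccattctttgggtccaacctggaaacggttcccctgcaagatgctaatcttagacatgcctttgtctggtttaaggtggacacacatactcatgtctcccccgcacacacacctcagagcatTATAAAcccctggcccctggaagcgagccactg
Oxt, chr2:130575919-130576168, plus strand: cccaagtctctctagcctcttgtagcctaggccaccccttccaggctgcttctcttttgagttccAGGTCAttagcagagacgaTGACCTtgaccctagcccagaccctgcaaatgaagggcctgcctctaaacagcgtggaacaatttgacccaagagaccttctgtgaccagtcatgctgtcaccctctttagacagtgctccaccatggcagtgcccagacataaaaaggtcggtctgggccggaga
Sst, chr16:23890845-23891094, minus strand: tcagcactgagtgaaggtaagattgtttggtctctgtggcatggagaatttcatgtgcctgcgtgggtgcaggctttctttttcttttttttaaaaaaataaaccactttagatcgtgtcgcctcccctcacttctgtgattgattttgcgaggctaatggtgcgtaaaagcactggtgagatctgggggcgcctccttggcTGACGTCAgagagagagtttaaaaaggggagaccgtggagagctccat
Cartpt, chr13:99900684-99900933, minus strand: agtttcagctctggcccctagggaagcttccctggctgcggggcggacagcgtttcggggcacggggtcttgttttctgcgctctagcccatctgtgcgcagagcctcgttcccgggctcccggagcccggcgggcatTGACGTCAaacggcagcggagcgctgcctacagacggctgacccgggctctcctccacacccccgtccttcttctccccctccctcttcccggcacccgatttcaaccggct
Scg2, chr1:79440027-79440276, minus strand: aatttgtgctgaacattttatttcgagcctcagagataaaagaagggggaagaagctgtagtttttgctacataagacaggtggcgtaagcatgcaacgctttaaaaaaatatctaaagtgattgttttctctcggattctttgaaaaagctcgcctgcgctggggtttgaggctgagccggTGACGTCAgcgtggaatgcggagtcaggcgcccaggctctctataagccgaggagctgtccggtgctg

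Among 32851 RefSeq windows of the same length, 1.55% held TGACGTCA, and it stood in 4 of the 31 member windows, those of Cartpt, Scg2, Sst and Ucn. In Sst, which encodes somatostatin, it began 48 bases before the start, against 68 bases in Scg2 and 112 bases in Cartpt. The shorter TGACG, which every TGACGTCA contains, stood in 16 member windows and in 17.8% of all windows. TATNCAT stood in 4 member windows, of Adcyap1, Prl and Vip, and in 7.92% of all windows, and the Prl window held it 47 and 148 bases before the start. TATAAA stood in 9 member windows and 12.4% of all windows, AGGTCA in 8 and 14% and TGANTCA in 3 and 6.75%. The Oxt window held AGGTCA on both strands, 185 and 166 bases before the start, and the Hcrt window held only TATAAA, 33 bases before it. Avp, Oxt, Pdyn, Npy, Cck, Gal, Tac1 and Nts also fell in both LPS groups, and their windows did not hold TGACGTCA. All of these are matches of letters, no binding was measured, and a link between any element and the changes was not tested.

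Levels were compared between genes as the deposited FPKM, which divide by gene length. The granin Scg2, a structural precursor of dense-core vesicles, was highest in all 3 groups, at 179 ± 2.97 FPKM in LPS 7d, 166 ± 3.33 FPKM in LPS 1d and 191 ± 10.4 FPKM in PBS 1d (SD, n = 3). It was followed in every group by Sst, at 113 ± 5.17, 139 ± 5.44 and 177 ± 13 FPKM in the same order of groups. In LPS 1d and PBS 1d the enkephalin precursor Penk came next, at 114 ± 1.42 and 122 ± 11.4 FPKM. In LPS 7d the place was taken by Vgf, at 77.5 ± 2.97 FPKM, with Penk at 70.8 ± 2.68 FPKM, and these neighbours differed by more than either SD. Cck, Npy, Oxt, Avp and Hcrt stood at 12.2 to 84.2 FPKM in group means, and in PBS 1d Npy (55.7 ± 2.87 FPKM) and Oxt (54 ± 5.96 FPKM) did not differ beyond their SDs. At the low end, Cga, Ghrh, Ucn, Rln3 and Npff stayed under 1 FPKM in every group mean, and in PBS 1d Cga, Ghrh and Ucn (0.600 to 0.677 FPKM) did not differ beyond their SDs. Together, the members summed to 1233 ± 36.6 CPM in LPS 7d, 1240 ± 32.8 CPM in LPS 1d and 1565 ± 64.0 CPM in PBS 1d. Scg2, Vgf and Penk made up 63.1 ± 0.477% of that sum in LPS 7d, 62.6 ± 0.334% in LPS 1d and 61.0 ± 0.435% in PBS 1d, so the sum speaks mainly for these 3 genes.

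**Figure D2:**
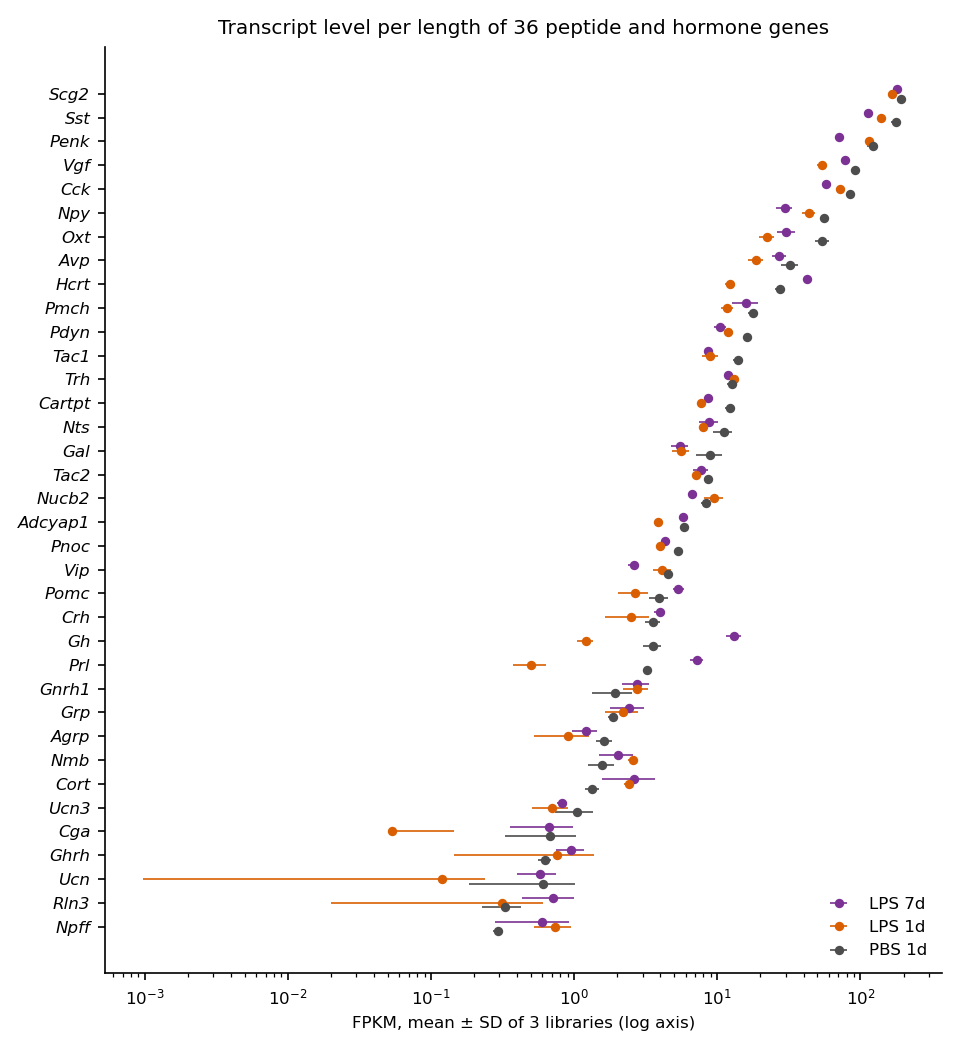
Level per gene length of 36 members (Kiss1, at 0, is left out), as deposited FPKM on a log axis, mean ± SD of 3 libraries for LPS 7d, LPS 1d and PBS 1d; no lower bar is drawn where the SD exceeds the mean. Scg2 and Sst head the list in each group, and Gh, Prl and Hcrt are spread widest between groups among genes above 1 FPKM in PBS 1d.

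Most changes against PBS 1d were falls. In LPS 1d against PBS 1d, 22 of the 34 tested members fell and 2 rose (edgeR quasi-likelihood test, Benjamini-Hochberg adjusted p under 0.05 over 14837 genes). Over all genes tested, 49.1% were called in this comparison, 24.9% higher and 24.2% lower, and the median log2 fold change was -0.44 for the members and -0.01 for all genes. With LPS 7d set against PBS 1d, 16 members fell and 4 rose, where 35.6% of all genes were called, 16.8% higher and 18.9% lower; the medians were -0.23 for the members and 0.002 for all genes. At 7 days, relative to LPS 1d, 11 members rose and 7 fell, where 56.6% of all genes were called, 27.5% higher and 29.1% lower, and the members' share of calls was near that of all genes. Cga and Npff passed the filter on low counts only through groups in which they were higher, and they could not be tested in a fit on the 6 libraries of LPS 1d and PBS 1d. Without members that such a fit could not test, 21 fell and 1 rose in LPS 1d against PBS 1d, and 10 rose and 7 fell in LPS 7d against LPS 1d. The comparisons share samples and are not independent of each other. Against a fold of 1.5, a test added after the data were seen, 6 members changed in LPS 1d against PBS 1d (Prl, Gh, Oxt, Hcrt and Vgf, and Cga with the limit just given, all lower), where 4.36% of all genes did. Gh and Prl (higher) and Oxt, Npy and Penk (lower) passed it in LPS 7d against PBS 1d, where 3.63% of all genes did. In LPS 7d relative to LPS 1d, Prl, Gh, Cga, Hcrt and Pomc passed as higher and Penk as lower, where 8.47% of all genes did.

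**Figure D3:**
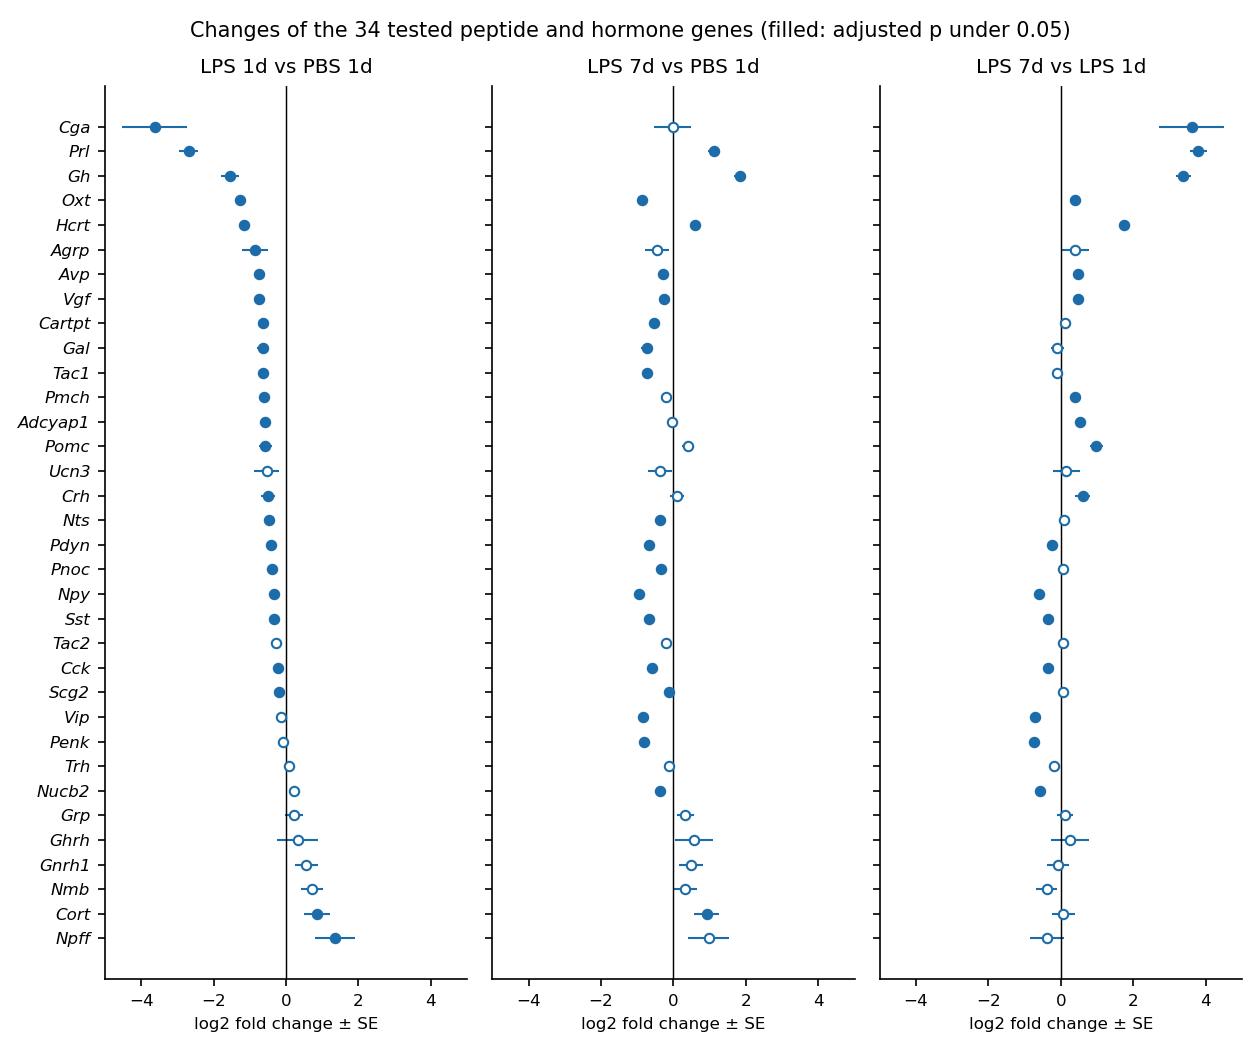
Log2 fold change ± SE of the 34 tested members in the 3 comparisons, filled where the edgeR adjusted p was under 0.05. In LPS 1d against PBS 1d most points lie left of 0, and Prl, Gh and Hcrt lie on opposite sides of 0 in LPS 1d and LPS 7d, each against PBS 1d; the size for Cga rests on 2 counts in LPS 1d.

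The pituitary hormone genes Prl and Gh fell in LPS 1d and rose in LPS 7d, each against PBS 1d. Prl encodes prolactin, the milk hormone, and lies on chromosome 13 (27241553 to 27249188, GRCm39, plus strand, in the deposited coordinates). It had 8.7, 10.2 and 10.8 CPM in LPS 7d libraries, 0.925, 0.561 and 0.669 CPM in LPS 1d libraries and 4.64, 4.49 and 4.63 CPM in PBS 1d libraries. All LPS 7d libraries lay above, and all LPS 1d libraries below, every PBS 1d library. The log2 fold change was -2.69 ± 0.25 (SE, edgeR adjusted p = 1e-12) in LPS 1d and 1.11 ± 0.16 (edgeR adjusted p = 6.91e-08) in LPS 7d, each against PBS 1d. Gh, the growth hormone gene (chromosome 11, 106191097 to 106192691, minus strand), had 9.99, 12.5 and 10.6 CPM in LPS 7d libraries, 1.08, 1.18 and 0.913 CPM in LPS 1d libraries and 3.53, 3.1 and 2.59 CPM in PBS 1d libraries. The groups again did not overlap and stood in the same order, with log2 fold changes of -1.54 ± 0.25 in LPS 1d (edgeR adjusted p = 1.3e-06) and 1.83 ± 0.17 in LPS 7d (edgeR adjusted p = 2.75e-13) against PBS 1d. In LPS 7d against LPS 1d, Prl was at 3.80 ± 0.22 and Gh at 3.37 ± 0.21. Cga encodes the alpha subunit shared by thyrotropin and the gonadotropins and was rare, with 9, 6 and 16 counts in LPS 7d libraries, 2, 0 and 0 counts in LPS 1d libraries and 5, 11 and 14 counts in PBS 1d libraries. LPS 1d held 2 counts against 30 counts in PBS 1d, a ratio of 0.0688 (95% counting interval 0.00797 to 0.271), and the LPS 7d ratio to PBS 1d was 1.02 (0.598 to 1.75). The fit without the filter on low counts, on every gene with a count, gave edgeR adjusted p = 0.000431 for LPS 1d against PBS 1d. That fit took the spread from the trend over genes and gave no weight to the spread of Cga itself. Both counts of LPS 1d came from replicate 1, and without it the group holds no count.

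The ratio of Prl to Gh in CPM was 0.903 ± 0.107 in LPS 7d, 0.688 ± 0.196 in LPS 1d and 1.52 ± 0.244 in PBS 1d, so the LPS groups overlapped each other and lay below PBS 1d. Other pituitary markers were rare or mixed. The 9 listed markers summed to 6.39 to 6.91 CPM in LPS 7d, 8.28 to 9.78 CPM in LPS 1d and 6.48 to 9.75 CPM in PBS 1d. Pou1f1, the factor that defines the prolactin and growth hormone cells, had no count in any library, where 3 counts would be 0.174 to 0.227 CPM. Tbx19, which defines the pituitary cells that make Pomc, had 15 counts in LPS 7d, 0 in LPS 1d and 19 in PBS 1d, and Pitx1, a factor of the early pituitary, had 7, 1 and 6 counts in the same groups. These small totals were lowest in LPS 1d, as were those of Prl, Gh and Cga. Of the 3 pituitary markers that could be tested, Tshb, the beta subunit of thyrotropin, fell by 0.67 ± 0.22 on the log2 scale in LPS 7d against LPS 1d (edgeR adjusted p = 0.00734), opposite in sign to Cga. Tshb did not pass against PBS 1d, at 0.49 ± 0.21 in LPS 1d and -0.18 ± 0.23 in LPS 7d. Lhb, the beta subunit of luteinizing hormone, passed in no comparison, at -0.81 ± 0.66 in LPS 1d against PBS 1d, -0.65 ± 0.63 in LPS 7d against PBS 1d, and 0.16 ± 0.72 in LPS 7d against LPS 1d. The Lhb name stands in more than 1 row, and the row with counts was used.

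Among the neuroendocrine hormones of the hypothalamus, the magnocellular pair fell most. Oxt encodes oxytocin and its carrier neurophysin (chromosome 2, 130418093 to 130418974, plus strand) and had 13.7, 15.6 and 18.6 CPM in LPS 7d libraries, 10.5, 13.1 and 12.6 CPM in LPS 1d libraries and 25.7, 31.8 and 29.9 CPM in PBS 1d libraries. Every LPS library lay below every PBS 1d library, and LPS 7d lay above LPS 1d without overlap. Its log2 fold change was -1.26 ± 0.10 in LPS 1d (edgeR adjusted p = 1.68e-14) and -0.86 ± 0.10 in LPS 7d (edgeR adjusted p = 3.02e-10) against PBS 1d. Avp, the vasopressin gene, lies next to Oxt on the opposite strand (130422540 to 130424474). It had 13.9, 17.2 and 14.9 CPM in LPS 7d libraries, 9.4, 11.6 and 11.7 CPM in LPS 1d libraries and 16, 20.9 and 19 CPM in PBS 1d libraries. The LPS 1d libraries lay below the others, while LPS 7d and PBS 1d overlapped. Avp fell in LPS 1d (-0.76 ± 0.11, edgeR adjusted p = 1.96e-07) and, less far, in LPS 7d (-0.28 ± 0.11, edgeR adjusted p = 0.0368). The call in LPS 7d was lost without PBS 1d replicate 2 or 3 (edgeR adjusted p = 0.243 and 0.108) and without LPS 7d replicate 1 or 3 (0.165 and 0.0953), and also with DESeq2 (0.0871) and with library totals as the only scaling (0.074). The ratio of Oxt to Avp in CPM was 1.05 ± 0.177 in LPS 7d, 1.11 ± 0.0316 in LPS 1d and 1.57 ± 0.0448 in PBS 1d, where neither LPS group overlapped PBS 1d.

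Crh encodes corticotropin-releasing hormone, which drives the stress axis, and had 5.45, 5.24 and 4.61 CPM in LPS 7d libraries, 3.01, 4.61 and 2.43 CPM in LPS 1d libraries and 5.41, 4.43 and 4.36 CPM in PBS 1d libraries. LPS 1d replicate 2 lay within the PBS 1d range, and the other LPS 1d libraries lay below it. Crh fell in LPS 1d against PBS 1d (-0.50 ± 0.20, edgeR adjusted p = 0.0378) and was higher in LPS 7d than in LPS 1d (0.60 ± 0.20, edgeR adjusted p = 0.00891). The fall rested on few libraries: the log2 fold change was -0.30 without LPS 1d replicate 3 (edgeR adjusted p = 0.275), -0.82 without LPS 1d replicate 2 (0.00313), -0.43 without LPS 1d replicate 1 (0.112) and -0.39 without PBS 1d replicate 1 (0.163). DESeq2 gave an adjusted p of 0.07. The later difference was 0.40 without LPS 1d replicate 3 (edgeR adjusted p = 0.113) and 0.92 without LPS 1d replicate 2 (0.000611). Trh, thyrotropin-releasing hormone, had 16.4, 15.7 and 16.2 CPM in LPS 7d libraries, 16.6, 18.8 and 19.7 CPM in LPS 1d libraries and 16.9, 19 and 16.6 CPM in PBS 1d libraries. It passed in no comparison, at 0.07 ± 0.10 in LPS 1d and -0.12 ± 0.10 in LPS 7d against PBS 1d and -0.20 ± 0.10 in LPS 7d against LPS 1d; without LPS 1d replicate 1 that last value was -0.26 and passed (edgeR adjusted p = 0.0354).

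Gnrh1, the gonadotropin-releasing hormone gene, had 1.29, 1.85 and 2.01 CPM in LPS 7d libraries, 1.39, 1.93 and 2.07 CPM in LPS 1d libraries and 0.881, 1.2 and 1.64 CPM in PBS 1d libraries. Its groups overlapped and no comparison passed, with log2 fold changes of 0.56 ± 0.33 in LPS 1d and 0.48 ± 0.32 in LPS 7d against PBS 1d. Ghrh, growth hormone-releasing hormone, was under 1 CPM in every library, with 8, 10 and 13 counts in LPS 7d libraries, 4, 16 and 4 counts in LPS 1d libraries and 8, 6 and 6 counts in PBS 1d libraries, and passed in no comparison. Kiss1, the kisspeptin gene, had no count in any library, and its row lies inside other same-strand gene models, so that reads shared with them may not have been counted to it. Beside these genes, the 12 listed hypothalamus markers that are not members summed to 41.1 to 46.3 CPM in LPS 7d, 39.4 to 45.4 CPM in LPS 1d and 50.2 to 58.3 CPM in PBS 1d. In LPS 1d against PBS 1d, 4 of 10 tested fell and none rose, where 49.1% of all genes were called. Those that fell were Nkx2-1 (-0.86 ± 0.14), Sim1 (-0.85 ± 0.20), Otp (-0.53 ± 0.15) and Nkx2-4 (-1.02 ± 0.42), transcription factors of the developing and adult hypothalamus. With LPS 7d set against PBS 1d, Sim1 (-0.81 ± 0.20) and Lhx9 (-0.45 ± 0.13) fell. At 7 days, relative to LPS 1d, Nkx2-1 rose (0.67 ± 0.14) and Lhx9 fell (-0.57 ± 0.13). Their part in the changes of the peptide genes was not tested.

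The hypothalamic peptides of arousal and feeding were all called lower in LPS 1d against PBS 1d, 6 of 6 tested. Among all genes tested, 24.2% were lower in this comparison. The calls of Pomc and Agrp were lost under some settings, as given with each gene. Hcrt encodes the orexins, wake-promoting peptides of lateral hypothalamic neurons, and lies on chromosome 11 (100651895 to 100653757, minus strand). It had 31.8, 31.3 and 29.5 CPM in LPS 7d libraries, 9.4, 9.84 and 8.58 CPM in LPS 1d libraries and 18.9, 21.8 and 21.2 CPM in PBS 1d libraries. The 3 groups did not overlap: every LPS 1d library lay below, and every LPS 7d library above, the PBS 1d libraries. The log2 fold change was -1.15 ± 0.10 in LPS 1d (edgeR adjusted p = 1.21e-13) and 0.58 ± 0.09 in LPS 7d (edgeR adjusted p = 1.3e-07) against PBS 1d, and 1.74 ± 0.10 in LPS 7d against LPS 1d. Pmch encodes melanin-concentrating hormone, made by other neurons of the same hypothalamic area, and had 8.95, 12.5 and 13.6 CPM in LPS 7d libraries, 9.94, 8.54 and 8.28 CPM in LPS 1d libraries and 14.6, 13.2 and 12.3 CPM in PBS 1d libraries. The LPS 1d libraries lay below the PBS 1d libraries, and LPS 7d overlapped both. Pmch fell in LPS 1d (-0.60 ± 0.13, edgeR adjusted p = 0.000148) and did not pass in LPS 7d (-0.20 ± 0.12), each against PBS 1d. It was higher in LPS 7d than in LPS 1d (0.40 ± 0.13, edgeR adjusted p = 0.0088), a call lost without LPS 7d replicate 3 (0.27, edgeR adjusted p = 0.106) or LPS 1d replicate 3 (0.35, 0.0501). The ratio of Hcrt to Pmch was 2.75 ± 0.722 in LPS 7d, 1.05 ± 0.104 in LPS 1d and 1.55 ± 0.231 in PBS 1d, without overlap between groups. Pmch overlaps Parpbp on the opposite strand, and whether counting used strand is not given in the sources used here.

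Pomc, precursor of melanocortins and beta-endorphin in arcuate neurons and in pituitary cells, had 6.19, 7.03 and 7.45 CPM in LPS 7d libraries, 4.47, 3.3 and 2.86 CPM in LPS 1d libraries and 4.94, 6.07 and 4.57 CPM in PBS 1d libraries. LPS 7d lay above both other groups and LPS 1d below them, with no overlap. It fell in LPS 1d against PBS 1d (-0.57 ± 0.19, edgeR adjusted p = 0.0101), but not without PBS 1d replicate 2 (edgeR adjusted p = 0.0811) or LPS 1d replicate 3 (0.0864). In LPS 7d relative to PBS 1d, it lay at the threshold (0.41 ± 0.17, edgeR adjusted p = 0.0514) and passed under 8 of 16 other settings, with adjusted p from 0.026 to 0.0491. Among these were the fits without LPS 1d replicate 1 (edgeR adjusted p = 0.0467) or 3 (0.0491), LPS 7d replicate 1 (0.0384) or PBS 1d replicate 2 (0.026). Between the LPS groups, Pomc was higher in LPS 7d (0.98 ± 0.18, edgeR adjusted p = 7.23e-06). Cartpt, whose peptides lower food intake, had 11, 10.7 and 10.6 CPM in LPS 7d libraries, 10.2, 10.4 and 9.62 CPM in LPS 1d libraries and 14.5, 16.6 and 16.2 CPM in PBS 1d libraries. Every LPS library lay below every PBS 1d library, and Cartpt fell in both LPS groups (-0.65 ± 0.11 in LPS 1d and -0.55 ± 0.11 in LPS 7d against PBS 1d). Gal, the galanin gene, had 3.55, 4.38 and 4.73 CPM in LPS 7d libraries, 3.78, 4.73 and 4.93 CPM in LPS 1d libraries and 5.64, 7.02 and 8.45 CPM in PBS 1d libraries. It fell in each LPS group, at -0.63 ± 0.17 in LPS 1d and -0.73 ± 0.17 in LPS 7d, and the LPS groups overlapped each other. Agrp, an appetite peptide of arcuate neurons, had 0.919, 1.3 and 1.36 CPM in LPS 7d libraries, 1.23, 1.06 and 0.487 CPM in LPS 1d libraries and 1.41, 1.77 and 1.77 CPM in PBS 1d libraries.

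Agrp fell in LPS 1d against PBS 1d (-0.85 ± 0.36, edgeR adjusted p = 0.0456), near the threshold. Leaving out LPS 1d replicate 3 gave -0.53 (edgeR adjusted p = 0.275), and the call was also lost without LPS 1d replicate 2, PBS 1d replicate 2 or 3 or LPS 7d replicate 2 (edgeR adjusted p = 0.0548, 0.115, 0.112 and 0.0527), with DESeq2 (0.0774), with no filter on low counts (0.0542) and with a replicate block (0.0513). The deposited Agrp row also spans parts of Ctcf and Ripor1 on the other strand, so its counts are uncertain.

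**Figure D4:**
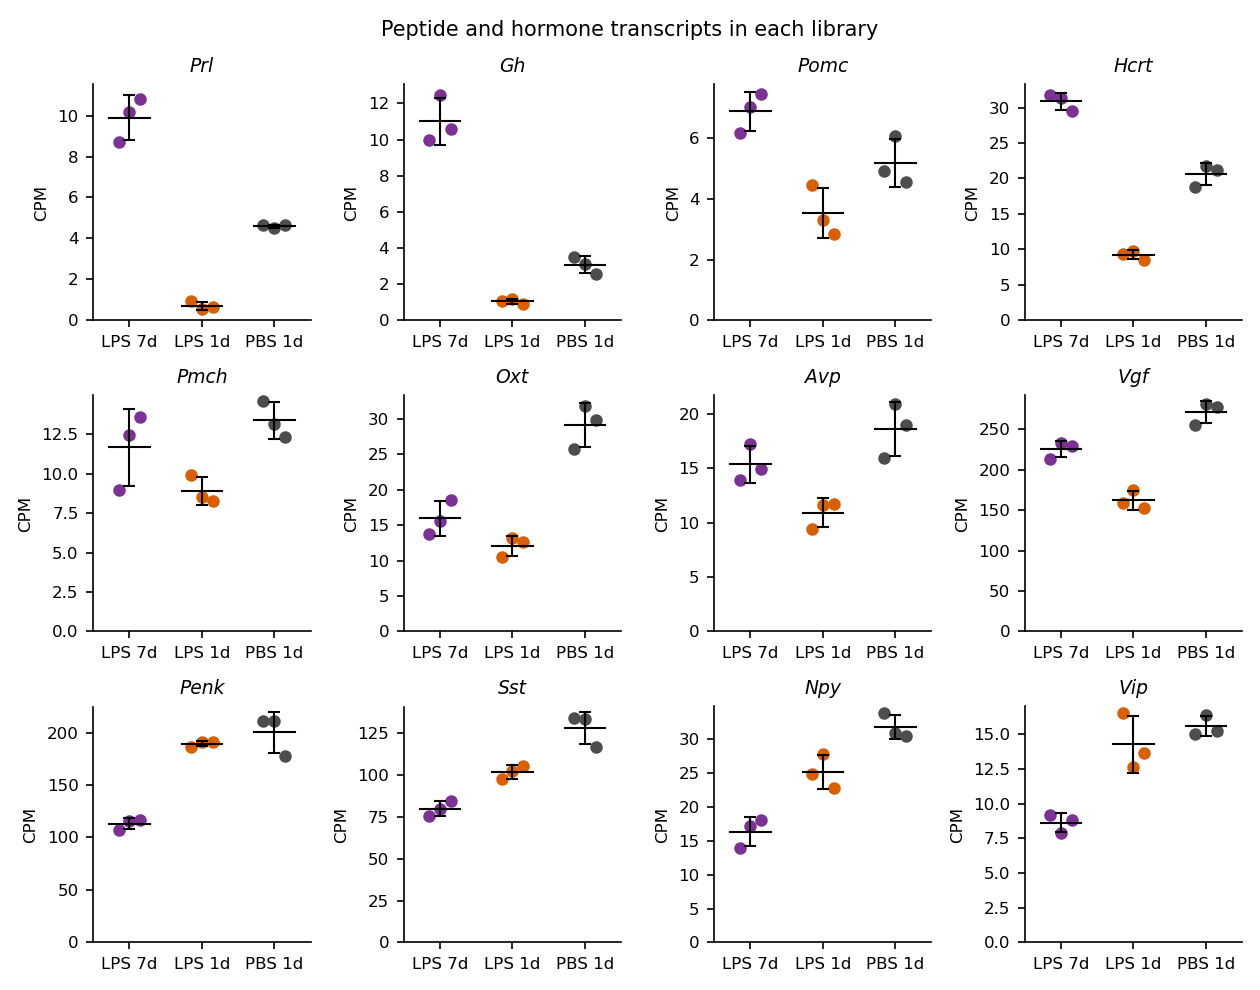
CPM in each library for 12 members in LPS 7d, LPS 1d and PBS 1d, with the mean and SD of each group as bars; every axis starts at 0. Prl, Gh and Hcrt were highest in LPS 7d and lowest in LPS 1d, Oxt, Avp and Vgf were lowest in LPS 1d, and Penk, Sst, Npy and Vip were lowest in LPS 7d.

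The opioid precursors were lower in LPS 7d than in PBS 1d. Penk encodes the enkephalins, abundant in striatal projection neurons, and lies on chromosome 4 (4133531 to 4138819, minus strand). It had 107, 116 and 117 CPM in LPS 7d libraries, 187, 191 and 191 CPM in LPS 1d libraries and 211, 211 and 178 CPM in PBS 1d libraries. The LPS 7d libraries lay far below the others, and LPS 1d and PBS 1d overlapped. The log2 fold change was -0.82 ± 0.05 in LPS 7d (edgeR adjusted p = 4.92e-20) and -0.08 ± 0.05 in LPS 1d (edgeR adjusted p = 0.158), each against PBS 1d. Without PBS 1d replicate 3, the lowest of that group, the value in LPS 1d was -0.15 and passed (edgeR adjusted p = 0.00703). Pdyn, the dynorphin precursor, had 32.4, 28.1 and 27.7 CPM in LPS 7d libraries, 37, 35.1 and 32.8 CPM in LPS 1d libraries and 46, 47.6 and 46.3 CPM in PBS 1d libraries. Its groups did not overlap and fell in steps, with PBS 1d highest and LPS 7d lowest, at -0.42 ± 0.07 in LPS 1d and -0.67 ± 0.07 in LPS 7d against PBS 1d. Pnoc, the nociceptin precursor, had 9.07, 9.69 and 8.52 CPM in LPS 7d libraries, 8.4, 8.35 and 9.43 CPM in LPS 1d libraries and 10.9, 11.7 and 12 CPM in PBS 1d libraries. It fell in LPS 1d (-0.40 ± 0.12, edgeR adjusted p = 0.00654) and in LPS 7d (-0.34 ± 0.12, edgeR adjusted p = 0.0228). The call in LPS 7d was lost without LPS 7d replicate 1 or 3 (edgeR adjusted p = 0.0505 and 0.0945) or PBS 1d replicate 2 or 3 (0.0573 and 0.0855). The ratio of Penk to Pdyn was 3.88 ± 0.493 in LPS 7d, 5.43 ± 0.382 in LPS 1d and 4.29 ± 0.396 in PBS 1d, where LPS 7d and PBS 1d overlapped.

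Of the tachykinins and neurotensin, 2 of 3 fell in both LPS groups. Among all genes tested, 24.2% were lower in LPS 1d and 18.9% in LPS 7d, each against PBS 1d. Tac1, the substance P precursor, is also a striatal transcript and had 29.8, 28.9 and 27.6 CPM in LPS 7d libraries, 31.1, 34.6 and 27.1 CPM in LPS 1d libraries and 44.9, 51.7 and 46.5 CPM in PBS 1d libraries. All LPS libraries lay below all PBS 1d libraries and the LPS groups overlapped, with -0.62 ± 0.08 in LPS 1d and -0.73 ± 0.08 in LPS 7d against PBS 1d. Nts, the neurotensin gene, had 8.82, 11.8 and 11.5 CPM in LPS 7d libraries, 10.7, 9.72 and 9.92 CPM in LPS 1d libraries and 14.9, 15.3 and 11.4 CPM in PBS 1d libraries. It fell in LPS 1d (-0.47 ± 0.12, edgeR adjusted p = 0.00158) and in LPS 7d (-0.38 ± 0.12, edgeR adjusted p = 0.0112). In LPS 7d its libraries overlapped PBS 1d, and the call was lost without LPS 7d replicate 1 (edgeR adjusted p = 0.122) or PBS 1d replicate 1 or 2 (0.0622 and 0.0799). Tac2, the neurokinin B gene, abundant in the medial habenula and the hypothalamus, had 10.8, 11.3 and 8.93 CPM in LPS 7d libraries, 9.87, 9.41 and 10.3 CPM in LPS 1d libraries and 11.9, 12.1 and 11.6 CPM in PBS 1d libraries. It did not pass, at -0.27 ± 0.12 in LPS 1d (edgeR adjusted p = 0.0597) and -0.20 ± 0.12 in LPS 7d, but passed in LPS 1d with library totals (-0.29, edgeR adjusted p = 0.0453) or upper-quartile factors (-0.29, 0.0416).

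Striatal markers fell in LPS 7d against PBS 1d, as did Penk, Pdyn and Tac1. Penk did not pass in LPS 1d against PBS 1d, nor did Tac1 in LPS 7d against LPS 1d (-0.10 ± 0.08). In LPS 1d against PBS 1d, 11 of 12 striatal markers fell (median log2 fold change -0.82). They included Pde10a (-0.98 ± 0.04), Adora2a (-1.10 ± 0.05) and Drd2 (-1.03 ± 0.06), receptors and a phosphodiesterase of striatal projection neurons. In LPS 7d against PBS 1d all 12 fell (median -1.27), including Ppp1r1b (-1.34 ± 0.04), Scn4b (-1.23 ± 0.04) and Pde10a (-1.16 ± 0.04). With LPS 7d set against LPS 1d, 9 of 12 fell (median -0.58), including Rasd2 (-0.93 ± 0.04) and Foxp1 (-0.76 ± 0.05). Penk stood at -0.08 ± 0.05 in LPS 1d, where Adora2a and Drd2, which mark the striatal neurons that contain enkephalin, were at -1.10 ± 0.05 and -1.03 ± 0.06. Habenula markers summed to 89.0 to 90.8 CPM in LPS 7d, 88.6 to 92.3 CPM in LPS 1d and 118 to 122 CPM in PBS 1d, with 3 of 8 lower and 1 higher in each LPS group against PBS 1d. Those lower were Nwd2 (-0.69 ± 0.07 and -0.69 ± 0.07 in LPS 1d and LPS 7d), Lrrc55 (-0.53 ± 0.08 and -0.51 ± 0.08) and Gpr151 (-0.61 ± 0.25 and -1.49 ± 0.28), and Vav2 was higher (0.33 ± 0.10 and 0.35 ± 0.10). Over all genes tested, 49.1% were called in LPS 1d and 35.6% in LPS 7d, each against PBS 1d. The part of the striatal and habenular shifts in the peptide changes was not tested.

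Peptides of cortical and other interneurons fell furthest in LPS 7d, 4 of 5 tested. Among all genes tested, 18.9% were lower in LPS 7d against PBS 1d. Sst had 75.7, 79.9 and 84.2 CPM in LPS 7d libraries, 97.3, 102 and 105 CPM in LPS 1d libraries and 134, 133 and 117 CPM in PBS 1d libraries. The groups did not overlap, with PBS 1d highest and LPS 7d lowest, at -0.33 ± 0.05 in LPS 1d (edgeR adjusted p = 4.7e-07) and -0.68 ± 0.05 in LPS 7d (edgeR adjusted p = 7.32e-16) against PBS 1d. Npy, neuropeptide Y, had 13.8, 17.2 and 18 CPM in LPS 7d libraries, 24.8, 27.7 and 22.8 CPM in LPS 1d libraries and 33.8, 30.9 and 30.5 CPM in PBS 1d libraries. Its groups were ordered in the same way without overlap, at -0.34 ± 0.09 in LPS 1d (edgeR adjusted p = 0.00114) and -0.96 ± 0.09 in LPS 7d (edgeR adjusted p = 1.06e-12). Cck, cholecystokinin, which excitatory neurons also make, had 67.2, 76.8 and 77.9 CPM in LPS 7d libraries, 89.6, 101 and 95.2 CPM in LPS 1d libraries and 114, 112 and 106 CPM in PBS 1d libraries. It followed the same order without overlap, at -0.21 ± 0.05 in LPS 1d and -0.58 ± 0.05 in LPS 7d. Vip, vasoactive intestinal peptide, had 9.19, 7.9 and 8.82 CPM in LPS 7d libraries, 16.6, 12.6 and 13.6 CPM in LPS 1d libraries and 15, 16.4 and 15.3 CPM in PBS 1d libraries. LPS 1d and PBS 1d overlapped and LPS 7d lay below both, with -0.13 ± 0.11 in LPS 1d, which did not pass, and -0.85 ± 0.12 in LPS 7d (edgeR adjusted p = 3.05e-08).

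Cort, cortistatin, a relative of somatostatin, was the exception and had 1.41, 2.53 and 1.24 CPM in LPS 7d libraries, 1.7, 1.74 and 1.52 CPM in LPS 1d libraries and 0.823, 1.01 and 0.886 CPM in PBS 1d libraries. It rose in LPS 1d (0.86 ± 0.35, edgeR adjusted p = 0.0399) and in LPS 7d (0.92 ± 0.35, edgeR adjusted p = 0.0327) against PBS 1d, and each LPS group lay above PBS 1d without overlap. At these low counts the LPS 1d call was lost when any library of the 2 groups was left out (edgeR adjusted p = 0.0563 to 0.106) and with DESeq2 (0.0629). The LPS 7d value was 0.55 without LPS 7d replicate 2 (edgeR adjusted p = 0.318), and the call was also lost without PBS 1d replicate 1 or 3 (0.0994 and 0.072) and with DESeq2 (0.0543). Interneuron markers summed to 1056 to 1122 CPM in LPS 7d, 1074 to 1089 CPM in LPS 1d and 1166 to 1186 CPM in PBS 1d. At 7 days, relative to PBS 1d, 6 of 10 fell, including Lhx6 (-0.70 ± 0.08), a factor of the neurons that make Sst, Gad2 (-0.42 ± 0.04) and Nxph1 (-0.32 ± 0.07). Pvalb, which cerebellar neurons also express, rose by 2.16 ± 0.06. Its mean in the sums above was 118 CPM in LPS 7d, 26.9 CPM in LPS 1d and 26.4 CPM in PBS 1d. In LPS 1d against PBS 1d, 2 fell (Gad1 at -0.23 ± 0.04 and Sox6 at -0.47 ± 0.08) and 2 rose (Htr3a at 1.15 ± 0.22 and Adarb2 at 0.15 ± 0.05). In LPS 7d relative to LPS 1d, 5 fell and 2 rose. Over all genes tested, 49.1% were called in LPS 1d and 35.6% in LPS 7d against PBS 1d, and 56.6% between the LPS groups. Markers of cortical excitatory neurons summed to 854 to 877 CPM in LPS 7d, 1148 to 1183 CPM in LPS 1d and 977 to 1017 CPM in PBS 1d. In LPS 7d against PBS 1d 6 of 8 fell, such as Tbr1 (-0.79 ± 0.06), whereas in LPS 1d 3 rose, such as Slc17a7 (0.30 ± 0.03), and 1 fell.

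Adcyap1, the gene of the peptide PACAP, had 21.4, 20.5 and 22.2 CPM in LPS 7d libraries, 14.3, 15.8 and 14.4 CPM in LPS 1d libraries and 21.3, 22.1 and 23 CPM in PBS 1d libraries. LPS 7d and PBS 1d overlapped, and LPS 1d lay below both. It fell in LPS 1d against PBS 1d (-0.58 ± 0.09, edgeR adjusted p = 8.29e-07), stood at -0.05 ± 0.09 in LPS 7d, which did not pass, and was higher in LPS 7d than in LPS 1d (0.53 ± 0.09). Grp, gastrin-releasing peptide, had 3.25, 2.71 and 4.56 CPM in LPS 7d libraries, 4.24, 3.12 and 2.56 CPM in LPS 1d libraries and 3.06, 2.59 and 2.73 CPM in PBS 1d libraries. Its groups overlapped and no comparison passed (0.22 ± 0.24 in LPS 1d and 0.33 ± 0.23 in LPS 7d against PBS 1d). Nmb, neuromedin B, had 1.53, 1.17 and 2.01 CPM in LPS 7d libraries, 2.24, 2.12 and 1.89 CPM in LPS 1d libraries and 1.35, 1.46 and 0.954 CPM in PBS 1d libraries. It lay above PBS 1d in every LPS 1d library, at 0.71 ± 0.31, and did not pass (edgeR adjusted p = 0.0526), though a fit on the 6 libraries of the comparison gave an edgeR adjusted p of 0.0495. Nmb overlaps Sec11a on the same strand for 188 bases, so reads there may be split.

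Npff, the neuropeptide FF gene, was under 1 CPM in every library, with 5, 15 and 9 counts in LPS 7d libraries, 7, 12 and 16 counts in LPS 1d libraries and 5, 5 and 4 counts in PBS 1d libraries. Its log2 fold change in LPS 1d against PBS 1d was 1.36 ± 0.55, with edgeR adjusted p = 0.0362 among genes that passed the filter on low counts, which Npff did through its LPS libraries. It did not pass without that filter (0.0647), without LPS 1d replicate 2 or 3 (edgeR adjusted p = 0.0666 and 0.158), without any 1 of the PBS 1d libraries (0.0713 to 0.0825) or with DESeq2 (0.0702), and a rise was therefore not established. Npff also lies inside another same-strand gene model, Gm28047. The urocortins are stress peptides related to Crh. Ucn3 had 1.1, 1.17 and 1.3 CPM in LPS 7d libraries, 0.771, 1.37 and 1.03 CPM in LPS 1d libraries and 1.7, 1.9 and 1.02 CPM in PBS 1d libraries, with overlapping groups and no call (-0.53 ± 0.35 in LPS 1d and -0.38 ± 0.34 in LPS 7d against PBS 1d). Ucn had 5, 3 and 6 counts in LPS 7d libraries, 0, 1 and 2 counts in LPS 1d libraries and 3, 3 and 8 counts in PBS 1d libraries. It was not tested in the main fit. The LPS 1d total of 3 counts was 0.221 times that of PBS 1d (95% counting interval 0.0408 to 0.793), and LPS 7d was at 0.988 times PBS 1d (0.436 to 2.23). The fit without the filter on low counts gave Ucn a log2 fold change of -2.05 ± 1.06 in LPS 1d against PBS 1d. That value did not pass (edgeR adjusted p = 0.113). Rln3, relaxin 3, a peptide of the hindbrain nucleus incertus, had 4, 8 and 10 counts in LPS 7d libraries, 3, 6 and 0 counts in LPS 1d libraries and 4, 4 and 2 counts in PBS 1d libraries. It was not tested in the main fit either. LPS 7d was at 2.17 times PBS 1d (0.987 to 5.14) and LPS 1d at 0.929 times (0.334 to 2.54). Counting intervals cover counting error only.

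Of the 3 widely expressed secretory genes, 2 fell in LPS 1d and 3 in LPS 7d, each against PBS 1d. Among all genes tested, 24.2% and 18.9% were lower in these comparisons. Vgf encodes a secreted precursor whose transcription follows neuronal activity, and had 214, 233 and 229 CPM in LPS 7d libraries, 159, 175 and 153 CPM in LPS 1d libraries and 256, 281 and 278 CPM in PBS 1d libraries. The groups did not overlap, with LPS 1d lowest and PBS 1d highest, at -0.74 ± 0.05 in LPS 1d (edgeR adjusted p = 2.74e-19) and -0.27 ± 0.04 in LPS 7d (edgeR adjusted p = 1.95e-06). Scg2 had 438, 432 and 448 CPM in LPS 7d libraries, 415, 428 and 431 CPM in LPS 1d libraries and 502, 495 and 451 CPM in PBS 1d libraries. It fell by a small amount in both LPS groups, -0.18 ± 0.04 in LPS 1d (edgeR adjusted p = 5.77e-05) and -0.14 ± 0.04 in LPS 7d (edgeR adjusted p = 0.00311), and the difference between the LPS groups (0.05 ± 0.04) passed only with library totals (0.11, edgeR adjusted p = 0.0127). Nucb2, the precursor of nesfatin, had 14, 15 and 16.2 CPM in LPS 7d libraries, 18.7, 24.7 and 24.3 CPM in LPS 1d libraries and 18.9, 21.4 and 18.6 CPM in PBS 1d libraries. It fell in LPS 7d (-0.38 ± 0.10, edgeR adjusted p = 0.00216) against PBS 1d. In LPS 1d it was at 0.21 ± 0.10 (edgeR adjusted p = 0.0688) and passed as higher without LPS 1d replicate 1 (0.32, edgeR adjusted p = 0.00758) or PBS 1d replicate 2 (0.27, 0.0372).

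By their calls in the 3 comparisons, Hcrt, Prl and Gh fell in LPS 1d, rose in LPS 7d against PBS 1d and rose between the LPS groups. Avp, Oxt and Vgf fell in both LPS groups and were higher in LPS 7d than in LPS 1d. Crh, Pmch, Pomc and Adcyap1 fell in LPS 1d, did not pass in LPS 7d against PBS 1d and were higher in LPS 7d than in LPS 1d. Pdyn, Sst, Npy and Cck fell in all 3 comparisons, and Cartpt, Gal, Pnoc, Tac1, Nts and Scg2 fell in both LPS groups with no call between them. Penk, Vip and Nucb2 fell in LPS 7d against each of the other groups and did not pass in LPS 1d. The comparison between the LPS groups is the test of the difference between 1 day and 7 days. Its libraries also differ in markers of cerebellum and hindbrain, of striatum and of cortical excitatory neurons.

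Genes that process, receive or accompany the peptides changed in both directions. Over all genes tested, 49.1% were called in LPS 1d against PBS 1d, 24.9% higher and 24.2% lower. In LPS 7d against PBS 1d, 35.6% were called, 16.8% higher and 18.9% lower. Against LPS 1d, the LPS 7d share was 56.6%, 27.5% higher and 29.1% lower. Of 17 tested genes of peptide processing and dense-core vesicles, 6 rose and 6 fell in LPS 1d against PBS 1d. Furin, a convertase, rose (0.45 ± 0.06), while Pcsk1n, an inhibitor of a convertase (-0.40 ± 0.05), the amidating enzyme Pam (-0.25 ± 0.04) and chromogranin A, Chga (-0.28 ± 0.05), fell. With LPS 7d set against PBS 1d, 3 rose and 8 fell, with the convertase Pcsk2 at -0.52 ± 0.04, the vesicle proteins Ptprn2 and Ptprn at -0.47 ± 0.04 and -0.47 ± 0.04, and Cadps2, a release factor, at 0.58 ± 0.05. At 7 days, relative to LPS 1d, 5 rose and 6 fell, with Pcsk2 at -0.65 ± 0.04 and carboxypeptidase E, Cpe, at -0.27 ± 0.03. Of 37 tested peptide receptors, 2 rose and 15 fell in LPS 1d against PBS 1d (median log2 fold change -0.24). The cholecystokinin receptor Cckbr (-0.93 ± 0.08), the neurotensin receptor Ntsr2 (-0.35 ± 0.04) and the corticotropin-releasing hormone receptor Crhr1 (-0.68 ± 0.10) fell, and the galanin receptor Galr2 rose (1.59 ± 0.25). In LPS 7d relative to PBS 1d, 1 rose and 19 fell (median -0.38). Crhr1, which the cerebellum also expresses, rose (1.11 ± 0.09), and the melanin-concentrating hormone receptor Mchr1 (-0.94 ± 0.09), the VIP receptor Vipr1 (-0.73 ± 0.10) and Cckbr (-0.55 ± 0.08) fell. In LPS 7d against LPS 1d 5 rose and 14 fell, and those with the smallest adjusted p were Crhr1 (1.78 ± 0.09), Vipr1 (-0.85 ± 0.09) and the dynorphin receptor Oprk1 (-0.72 ± 0.10). Activity-dependent transcription factors fell in 9 of 11 cases and rose in 1 in LPS 1d against PBS 1d (median -0.70), including Egr1 (-1.17 ± 0.05), Nr4a1 (-0.98 ± 0.06), Fos (-1.17 ± 0.07) and Egr3 (-0.70 ± 0.05). With LPS 7d set against PBS 1d, 7 fell (median -0.54), including Egr1 (-0.73 ± 0.05) and Junb (-0.60 ± 0.06). At 7 days, relative to LPS 1d, 6 rose and 2 fell, with Fos at 1.04 ± 0.07 and Npas4 at 1.05 ± 0.11.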

How the data were processed

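Total RNA was extracted with Trizol and sequenced from TruSeq RNA libraries, per the labels' protocols. The submitters' processing notes name TopHat2, HISAT2, HTSeq and GRCm39; their versions and roles, the counting mode and the strand setting are not given in the sources used. The authors deposited gene counts and, beside them, FPKM values scaled by gene length and library total. FPKM computed again from those counts and lengths differed by at most 1.6e-07 in relative terms. Position, strand, length and name columns were used as deposited. The members and gene lists were chosen with earlier results of these data known.

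Counts were fitted with edgeR 4.0.16 (R 4.3.3), with a quasi-likelihood fit on all 9 libraries, a mean per group, filterByExpr and TMM factors (0.983 to 1.03). Of 21899 rows, 14837 were tested, p-values were two-sided and adjusted by Benjamini and Hochberg within a comparison, and a gene changed at an adjusted p under 0.05. The common biological coefficient of variation was 4.15%, with 6 residual and 43.4 prior degrees of freedom. SEs are the absolute log2 fold change over the root of the F statistic. Alternatives were other scalings, no filter, DESeq2 1.42.0, each library left out, the 6 libraries of a comparison, a replicate block and, added after the data were seen, glmTreat against a fold of 1.5. The fit was tested on simulated data. By rule all 37 members are named, those reaching a mean of 1 CPM in any group by library and the others by counts, with up to 4 genes of smallest p per other list and comparison; a few marker genes counted within their lists are not reported here by name. Ratios of rare counts carry exact 95% intervals. No library repeated another: within groups, chi-square per degree of freedom was 2.01 to 3.62.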

Additional observations from a re-analysis of the deposited data

Results flagged for a closer look

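Effects at 1 day and 7 days after LPS share the PBS 1d libraries as their reference, and the difference between them was tested directly as LPS 7d against LPS 1d. That difference passed for 18 members (edgeR quasi-likelihood adjusted p from 2.19e-21 to 0.00891) of the 34 tested, where 56.6% of all genes were called. It was positive for Prl (log2 fold change 3.8), Cga (3.61), Gh (3.37), Hcrt (1.74), Pomc (0.98), Crh (0.6), Adcyap1 (0.53), Avp (0.48), Vgf (0.47), Oxt (0.4) and Pmch (0.4). It was negative for Penk (-0.74), Vip (-0.72), Npy (-0.62), Nucb2 (-0.59), Cck (-0.37), Sst (-0.35) and Pdyn (-0.25). The same libraries differ in markers of cerebellum and hindbrain, of striatum and of cortical excitatory neurons, whose part was not tested. Cga passed the filter on low counts only through the other 2 groups, with 2 counts in LPS 1d.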

How the results depend on the processing

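With other scalings, no filter on low counts, DESeq2, the 6 libraries of a comparison or each library left out, the number of changed members stayed within 1.5 times the main count. Leaving out 1 library gave 19 to 24 in LPS 1d against PBS 1d (24 with all libraries), 17 to 21 in LPS 7d against PBS 1d (20) and 16 to 19 in LPS 7d against LPS 1d (18). DESeq2 gave 20, 18 and 18 in the same order, and it called none of the 2 rises in LPS 1d. Against a fold of 1.5 the counts were 6, 5 and 6. A replicate block gave 23, 20 and 18. Deviations from group means correlated at -0.023 to 0.027 between same-numbered and -0.04 to 0.057 between other-numbered libraries. No pairing by number was seen, though these values cannot exclude one.

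Calls of 5 members in LPS 1d against PBS 1d, 4 in LPS 7d against PBS 1d and 2 in LPS 7d against LPS 1d were lost under at least 1 setting, each named with its gene. Reversals of sign touched only values that had not passed the test. For Cga in LPS 7d against PBS 1d the value was 0.0175 with library totals and -0.46 to 0.36 over the fits without 1 library. In LPS 7d against LPS 1d such fits gave -0.00888 to 0.38 for Ucn3, -0.12 to 0.40 for Ghrh, -0.22 to 0.0912 for Gnrh1, -0.13 to 0.31 for Grp, -0.19 to 0.0161 for Gal and -0.31 to 0.25 for Cort. The cause was not tested. Depth limits Kiss1, Ucn, Rln3, Ghrh, Npff and Cga, which hold few counts or none.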
